A study of Rattus norvegicus with 12 samples.

Results

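The genes described here encode the nuclear subunits of the mitochondrial respiratory chain and of ATP synthase, together with assembly factors of complex I. They were taken as all array probes whose platform symbol begins with Nduf, Uqcr, Cox4 to Cox8 or Atp5, or is Sdha, Sdhb, Sdhc or Sdhd. This gave 71 probes for 71 rat genes out of 21946 probes, which name 12925 genes. The list held 31 genes of complex I, 4 of complex II, 5 of complex III, 11 of complex IV, 13 of ATP synthase and 7 complex I assembly factors (Ndufaf genes). All 71 gene identifiers were found in the RefSeq annotation of the rat genome GRCr8, where Ndufs6-ps1 is a pseudogene.

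Complexes I to IV of the inner mitochondrial membrane pass electrons from NADH and succinate to oxygen. Complexes I, III and IV also pump protons, and ATP synthase uses the proton gradient to make ATP. Most subunits are encoded in the nucleus and imported as proteins, whereas a small catalytic set is encoded in mitochondrial DNA and had no probe among the genes listed here. Exosomes are small vesicles that cells release and that carry RNA, so a messenger RNA can be measured both in vesicles and in cells.

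Total RNA was measured on 12 single-colour Illumina expression arrays in 5 groups. The vesicle groups were exosomes of ASML cells, a metastatic rat pancreatic adenocarcinoma line (wt exosomes, 3 arrays), and exosomes of ASML cells with a knockdown of CD44v, the variant forms of the surface receptor CD44 (kd exosomes, 3 arrays). The cell groups were B12 cells, a rat lymph node stroma line, either untreated (2 arrays) or after 24 h with wt exosomes (2 arrays) or with kd exosomes (2 arrays). The labels do not say how many knockdown clones were used or whether replicates came from separate cultures, so p-values measure only the spread between these arrays. ASML vesicles and B12 cells differ in cell line as well as in compartment, and these cannot be told apart.

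Mean signal over background, in intensity units, ranged from 108 to 173 for wt exosomes, from 100.1 to 299 for kd exosomes and from 505 to 588 for B12 cells. The single Cd44 probe read 6.73 to 7.18 (log2) on the wt and 5.37 to 5.72 on the kd exosome arrays, which did not overlap. That probe is not known to lie in a variant exon. Of 14 epithelial carcinoma markers, 12 were detected on all 3 wt exosome arrays and 8 on both untreated B12 arrays. Of 13 stroma markers 10 were detected on both untreated B12 arrays, where Pdpn, Thy1 and Mmp2 were not, and 5 on all 3 wt exosome arrays. Detection of these markers therefore does not separate the sources fully. The pairs of B12 arrays differed in their markers. The summed signal of the epithelial markers was 60806 on untreated array 1 and 9189 on array 2, and that of the stroma markers was 17102 and 127132. On the dimmer wt exosome arrays the sums were 14395 to 24659 and 1239 to 1671. Kd exosome array 3 stood apart from kd arrays 1 and 2, as described with the knockdown comparison.

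Of the 71 genes, 62 were detected on all 12 arrays and 63 to 68 on any single array, a gene counting as detected where its deposited p-value against background was below 0.05 and its intensity lay above background. Cox8b and Cox8c, the muscle and testis forms of subunit 8, were detected on no array, whereas their common partner Cox8a was detected on all 12. Cox6a2, the heart and muscle form of subunit 6a, did not pass the filter on dim probes in any fit that left out no array. Cox6a2 did pass in a fit that left out 1 kd exosome array, as described with the knockdown comparison. Its common partner Cox6a1 was detected on all 12 arrays. Ndufs4 and Atp5mc3 did not pass the filter with all arrays kept either. Ndufs4 is an accessory subunit of complex I. Atp5mc3, with Atp5mc1 and Atp5mc2, encodes the membrane ring of ATP synthase. The filter asked for detection on all arrays of at least 1 group, and 66 genes passed it over the 12 arrays, 63 over the exosome arrays and 66 over the B12 arrays.

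Nuclear respiratory genes are known to be targets of the transcription factors NRF1, GABP and YY1, and promoters were therefore searched for their motifs. RefSeq promoter windows of GRCr8, from 250 bases before to 50 bases after the gene start, were found for 62 of the 71 genes. The NRF1 core GCGCATGCG stood in 8 of the 62 windows (12.9%) against 1.66% of 27457 windows of all genes, on either strand. The YY1 core AAGATGGCG stood in 7 (11.3% against 1.93%), and the GABP motif CCGGAAGT in 6 (9.68% against 4.01%). CCAAT, a common promoter element, was found in 22 (35.5% against 37.7%). Among 19005 windows of protein-coding genes the shares were 2.03% for NRF1, 2.29% for YY1, 4.99% for GABP and 38.4% for CCAAT. The NRF1 and YY1 cores were shortened after longer forms matched fewer members. Uqcrc1 was the only gene whose window held more than one of NRF1, YY1 and GABP, namely the first pair. These are matches of letters, not measured binding. The windows of 5 members are given 5′ to 3′ with the NRF1, YY1 or GABP matches in capitals, that of Ndufa11 as an example of the NRF1 core and the others because the comparisons describe these genes. Ndufa11 holds overlapping NRF1 matches that run together on both strands, Ndufa2 1 YY1 match, Ndufb7 and Ndufs1 1 GABP match each, and Cox7a2l none of these letters.
Ndufa11, chr9:1637364-1637663, plus strand: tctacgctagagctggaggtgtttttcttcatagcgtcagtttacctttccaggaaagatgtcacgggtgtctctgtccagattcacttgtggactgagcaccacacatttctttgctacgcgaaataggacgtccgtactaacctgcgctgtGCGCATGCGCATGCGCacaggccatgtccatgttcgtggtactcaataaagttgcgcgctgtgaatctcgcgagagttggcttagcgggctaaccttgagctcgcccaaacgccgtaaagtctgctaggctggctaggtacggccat
Ndufa2, chr18:28631835-28632134, minus strand: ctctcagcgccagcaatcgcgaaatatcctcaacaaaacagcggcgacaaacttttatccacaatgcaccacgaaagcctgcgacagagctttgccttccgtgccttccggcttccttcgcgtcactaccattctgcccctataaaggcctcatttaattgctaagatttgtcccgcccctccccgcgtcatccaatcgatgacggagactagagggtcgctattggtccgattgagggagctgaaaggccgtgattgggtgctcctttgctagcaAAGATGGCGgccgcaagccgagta
Ndufb7, chr19:41477242-41477541, minus strand: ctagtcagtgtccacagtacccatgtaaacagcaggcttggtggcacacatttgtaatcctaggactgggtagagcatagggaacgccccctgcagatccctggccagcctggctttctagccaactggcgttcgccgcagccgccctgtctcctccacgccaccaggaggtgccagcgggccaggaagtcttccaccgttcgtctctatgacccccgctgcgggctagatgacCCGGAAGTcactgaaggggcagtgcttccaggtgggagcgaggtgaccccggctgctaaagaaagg
Ndufs1, chr9:72073556-72073855, minus strand: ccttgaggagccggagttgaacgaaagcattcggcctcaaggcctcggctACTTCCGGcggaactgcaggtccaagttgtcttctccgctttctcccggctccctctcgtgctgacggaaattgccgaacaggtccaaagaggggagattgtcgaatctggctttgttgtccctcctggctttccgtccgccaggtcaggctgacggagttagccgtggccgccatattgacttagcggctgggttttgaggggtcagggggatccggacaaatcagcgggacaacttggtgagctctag
Cox7a2l, chr6:16936324-16936623, plus strand: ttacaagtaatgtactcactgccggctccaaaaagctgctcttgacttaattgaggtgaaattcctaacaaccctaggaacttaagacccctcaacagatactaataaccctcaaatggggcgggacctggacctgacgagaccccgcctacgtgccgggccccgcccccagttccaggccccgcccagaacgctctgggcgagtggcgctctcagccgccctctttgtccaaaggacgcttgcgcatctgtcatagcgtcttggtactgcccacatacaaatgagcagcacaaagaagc

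The first comparison asked how the level of each respiratory transcript in wt exosomes compared with untreated B12 cells, all 12 arrays being normalized together by quantiles. On this scale 22 of the 66 genes that passed the filter were higher in wt exosomes and 5 were lower (limma, Benjamini-Hochberg adjusted p below 0.05), against 18.1% of 12231 probes called higher and 17.1% called lower. The member median was 0.24 (log2) and that of all probes tested 0.05. Among probes detected on all 12 arrays, 21 of 62 members were higher and 4 lower, against a background of 26.3% and 11.1%, and the member median of 0.24 lay below the 0.34 of those probes. The direction depended on the scaling. With each array scaled to its median instead, the median of all probes tested was −1.18, that of the members −1.67, and 1 member was higher and 47 lower, against 6.17% and 45.3% of all probes. Every value that follows is therefore a position relative to the other probes on the quantile scale, and not an amount of RNA per vesicle or per cell.

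Of the 30 complex I genes tested, 10 were called higher and none lower, with a median of 0.31. This was near the background, since probes detected on all 12 arrays had a median of 0.34 and 15 of the 30 genes lay above it. Ndufb7, an accessory subunit of the membrane arm, read 12.35, 12.42 and 12.46 in wt exosomes and 10.64 and 11.54 in untreated B12 cells. The groups did not overlap, and the difference was 1.32 ± 0.23 (SE), or 2.49-fold (adjusted p = 0.0021, limma). Ndufa2, an accessory subunit of the peripheral arm, read 11.44, 11.39 and 11.37 against 10.59 and 10.46, higher by 0.88 ± 0.18 (adjusted p = 0.0054, limma). All 3 exosome values were above both cell values. Median scaling gave −0.58 for Ndufb7 and −1.29 for Ndufa2, with the median of all probes at −1.18. Relative to the probes detected on all 12 arrays, Ndufb7 lay at 0.97 under quantile and 1.04 under median scaling, and Ndufa2 at 0.53 and 0.33. Ndufb4 and Ndufa7, also accessory subunits, were higher by 2.00 ± 0.54 and 1.49 ± 0.40, but Ndufb4 was detected on only 1 untreated array. Ndufa11, another accessory subunit, was higher by 0.53 ± 0.16. Among the core subunits, Ndufs3 was higher by 0.63 ± 0.18 (adjusted p = 0.022, limma). Ndufv1, which binds NADH, lay at −0.06 ± 0.25, and Ndufs1, which carries iron-sulfur clusters, lay at −0.98 ± 0.46 with an adjusted p of 0.115 (limma). Ndufs1 read 8.80, 9.10 and 9.01 in wt exosomes against 9.98 and 9.93 in cells. These groups did not overlap, but the shared spread of the fit included kd exosome arrays 1 and 2, on which Ndufs1 read 10.81 and 10.76. Without the 3 kd arrays in the fit, an alternative chosen after seeing the data, the adjusted p was 0.0026 (limma).

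Genes of complex III ran the other way. Uqcrc2, a core protein of the complex, read 10.04, 9.81 and 9.81 in wt exosomes against 10.80 and 10.59 in untreated cells, lower by 0.81 ± 0.28 (adjusted p = 0.044, limma). Uqcrfs1, the Rieske iron-sulfur protein, was lower by 0.61 ± 0.18 and Uqcrh, the hinge protein, by 0.50 ± 0.16. With Uqcrb at −0.03 and Uqcrc1 at 0.22, 3 of 5 were called lower and none higher, and the median was −0.50. Uqcrc2 passed the threshold with all arrays but not with any 1 array left out.

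Complex IV was split by subunit. Cox7a2l, a protein that joins complexes III and IV into supercomplexes, read 12.37, 12.53 and 12.30 in wt exosomes against 10.95 and 11.26 in untreated cells, higher by 1.29 ± 0.28 (adjusted p = 0.0058, limma) on the quantile scale. Under median scaling it lay at −0.61, and relative to the probes detected on all 12 arrays it lay at 0.95 and 1.02 under quantile and median scaling. Cox5a, Cox5b and Cox7b were higher by 1.02 ± 0.27, 0.71 ± 0.15 and 0.69 ± 0.21. Cox6a1, the common form of subunit 6a, read 13.42, 13.43 and 13.49 against 14.04 and 14.12. Its groups were far apart relative to their spread, and it was lower by 0.63 ± 0.10 (adjusted p = 0.00098, limma). Relative to the median of probes detected on all 12 arrays it lay at −0.97 under quantile and at −0.15 under median scaling. Cox6c, detected on 1 of the 3 wt exosome arrays, was lower by 1.09 ± 0.32. It passed the filter through the B12 groups alone, so its lower value is partly built in. Cox6c is among the 5 members called lower and the 4 members below all B12 arrays. Cox4i1, the regulatory subunit 4, lay at −0.49 ± 0.33 without passing the threshold.

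Complex II held 1 call among its 4 genes. Sdhd, a membrane anchor that binds ubiquinone, read 11.62, 11.64 and 11.63 in wt exosomes against 11.01 and 10.72 in cells, higher by 0.76 ± 0.17 (adjusted p = 0.0071, limma). The other anchor Sdhc lay at 0.22 ± 0.15, the iron-sulfur subunit Sdhb at −0.18 ± 0.22, and the flavoprotein Sdha at −0.73 ± 0.36.

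ATP synthase has a catalytic head, a central and a peripheral stalk, and a membrane part. The alpha and beta subunits of the head, Atp5f1a and Atp5f1b, lay at −0.38 ± 0.22 and 0.11 ± 0.20 and the gamma subunit Atp5f1c at 0.25 ± 0.36, none past the threshold. Of the 12 genes tested, 4 were called higher and none lower. Atp5mg, a small membrane subunit, read 12.72, 12.81 and 12.80 in wt exosomes against 11.78 and 12.00 in cells, higher by 0.89 ± 0.14 (adjusted p = 0.0012, limma). Atp5pd, a part of the peripheral stalk, was higher by 1.03 ± 0.26, the ring gene Atp5mc1 by 0.81 ± 0.16 and the delta subunit Atp5f1d by 0.56 ± 0.15. Atp5po, another stalk protein, lay at −0.02 ± 0.14. Median scaling gave −0.83 for Atp5mg, which relative to the probes detected on all 12 arrays lay at 0.54 under quantile and 0.80 under median scaling.

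The complex I assembly factors had a median of 1.08 over 7 genes, with 3 called higher. This was the highest median of the complexes on the quantile scale, but in the authors' values complex IV (0.49) lay above the assembly factors (0.37). Ndufaf6 was higher by 2.01 ± 0.56, Ndufaf4 by 1.30 ± 0.36 and Ndufaf3 by 1.08 ± 0.17 (adjusted p = 0.0011, limma). Ndufaf5, an enzyme that modifies a core subunit of complex I, lay at 1.96 ± 0.75 and did not pass (adjusted p = 0.063, limma), since its untreated arrays read 6.99 and 9.25 against 9.85, 10.22 and 10.18 in wt exosomes. Among members whose wt arrays differed in sign, Ndufaf2 (0.32 ± 0.62) and Atp5mk (−0.50 ± 0.49) had the widest range.

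**Figure D1:**
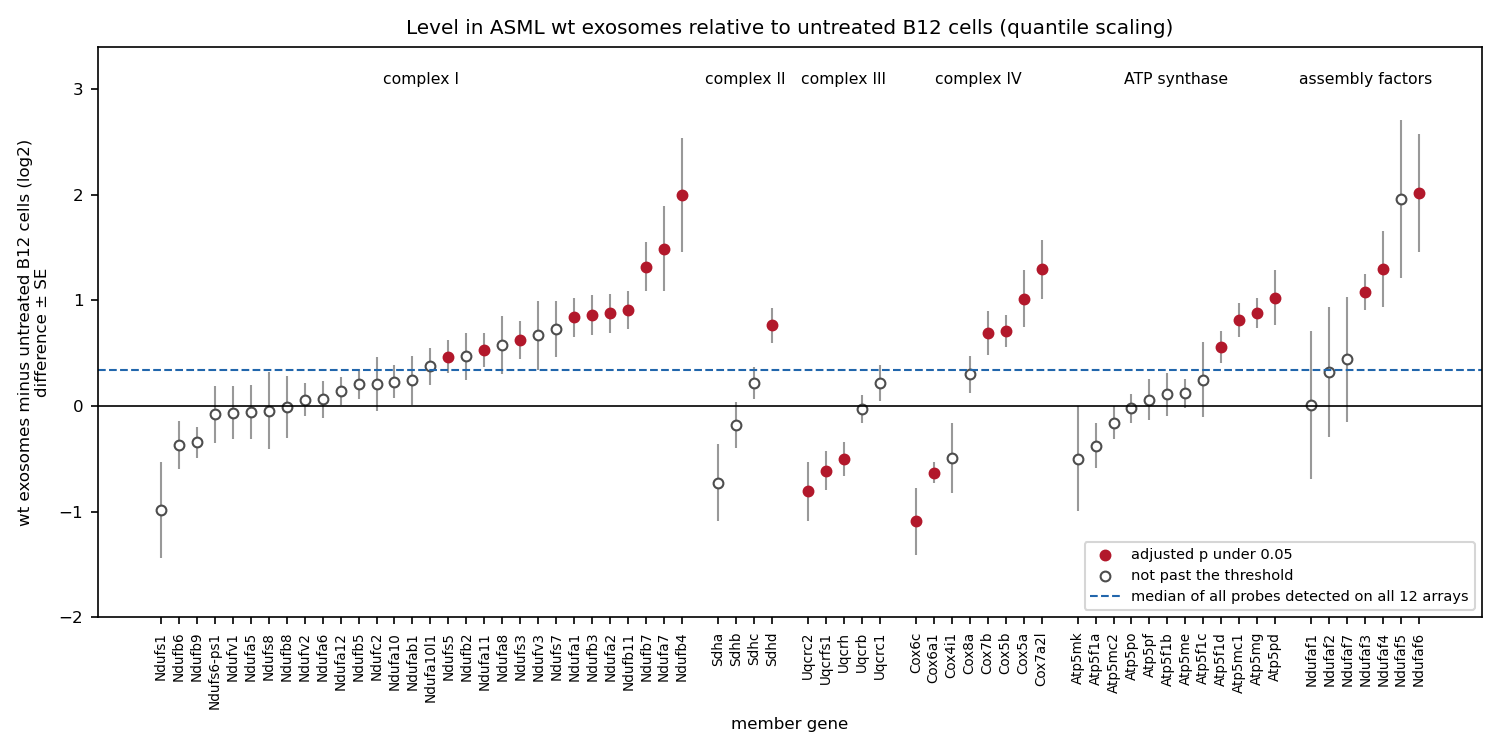
Difference in log2 level between wt exosomes and untreated B12 cells (vertical axis, log2, ± SE from limma) for the 66 genes that passed the filter, grouped by complex. Red points passed an adjusted p of 0.05, and the dashed line is the median of probes detected on all 12 arrays (0.34). Complex III genes lie at or below zero apart from Uqcrc1, and assembly factors at or above it, on quantile scaling. Median scaling called 47 genes lower and 1 higher, against 45.3% and 6.17% of all probes.

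The order of the members among themselves was compared over 4 scalings. Under quantile scaling, without background correction, under median scaling and in the authors' own values, Ndufs1 ranked 65 or 66 of the 66 differences, Uqcrc2 64 or 65 and Uqcrfs1 61 to 63. At the other end Ndufaf6 ranked 1 to 4, Ndufaf5 2 to 5, Ndufb7 3 to 8 and Cox7a2l 4 to 9. Cox6c, dim in exosomes, ranked anywhere from 20 to 66. Relative to the probes detected on all 12 arrays, the complex III median lay at −0.84 under quantile scaling, −0.75 without background correction, −0.39 under median scaling and −0.67 in the authors' values. The assembly factor median lay at 0.73, 0.39, 1.12 and 0.24 in the same order.

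On the quantile scale, 37 members lay higher in wt exosomes than in untreated cells without overlap and 10 lower (35% and 31.8% of all probes). Of the 62 members detected on all 12 arrays, 36 lay higher and 9 lower, against 2965 and 1477 of 6304 such probes. On the same scale, all 6 exosome arrays lay above all 6 B12 arrays for 26 of 66 members (18.4% of all probes), and below for 4 (17% of all probes). Median scaling turned 43 of the 45 members above zero to below it, so these counts hold for the quantile scale. With single arrays left out on that quantile scale, 13 to 23 members were called. The count was 14 without wt array 1, 17 without wt array 3, 13 without untreated array 1 and 14 without untreated array 2. Ndufb7 and Cox6a1 passed the threshold in each of these fits. Over the same contrast the epithelial markers had a median of 3.00 and the stroma markers of −3.78, and their part in the members' differences was not tested.

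**Figure D2:**
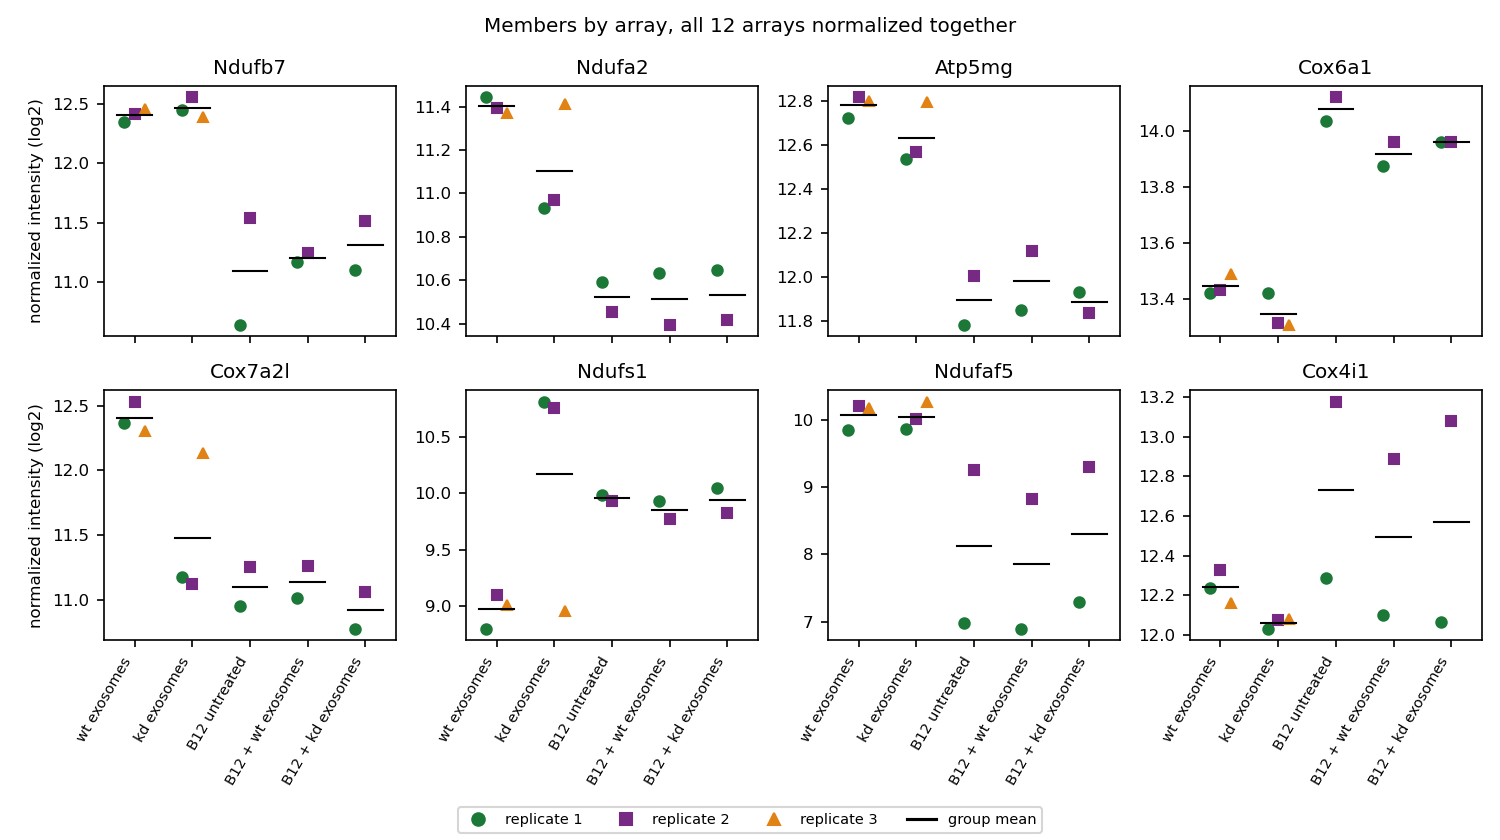
Normalized log2 intensity (vertical axis) of 8 members on the 12 arrays in the 5 groups (horizontal axis), with marker shape and colour for the replicate number and a line at each group mean. Ndufb7, Ndufa2 and Atp5mg are higher in all 6 exosome arrays than in any B12 array on quantile scaling, whereas median scaling, which moves the median of all probes to −1.18, turns the difference of their group means (−0.58, −1.29 and −0.83). Cox6a1 is lower on quantile scaling, and lies at −0.15 relative to detected probes under median scaling. Kd exosome arrays 1 and 2 stand away from kd array 3 for Cox7a2l and Ndufs1, and B12 replicates 1 and 2 differ for Ndufaf5 and Cox4i1.

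Other mitochondrial genes were listed for reference, again on the quantile scale. For all probes tested the shares called were 18.1% higher and 17.1% lower, with a median of 0.05. For probes detected on all 12 arrays they were 26.3% and 11.1%, with a median of 0.34. Of 58 tested mitochondrial ribosome genes (Mrpl and Mrps), 33 were higher in wt exosomes and none lower, with a median of 0.94, and of 16 protein import genes (Tomm and Timm) 10 were higher and none lower (median 0.83). Of 23 genes for respiratory assembly and copper delivery 7 were higher and 2 lower (median 0.41), and of 20 citric acid cycle genes 5 and 3 (median 0.09). Of 14 electron carrier and coenzyme Q genes 2 were higher and 1 lower (median 0.21), and none of 5 ATPase inhibitor and carrier genes was called (median 0.32). Glycolysis genes had 1 higher and 3 lower of 13 (median −0.88), and the 10 regulators of respiratory genes 2 and 2 (median −0.83). The members' median of 0.24 lay between these lists, and the differences between lists were not tested.

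**Figure D3:**
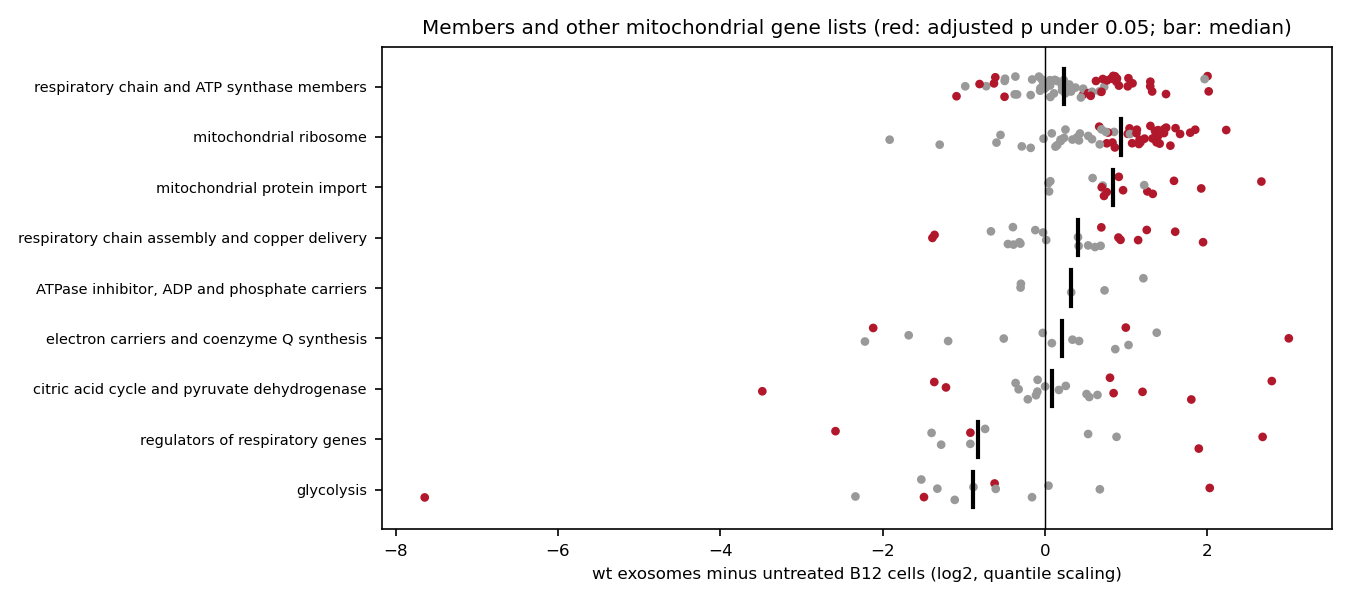
Log2 difference between wt exosomes and untreated B12 cells (horizontal axis, quantile scaling) for the members and for 8 other gene lists (rows), each point a gene, red where the adjusted p was below 0.05, with a bar at the median. The ribosome and import lists sit furthest to the right (medians 0.94 and 0.83) and glycolysis furthest to the left (−0.88). The median was 0.05 over all probes tested and 0.34 over probes detected on all 12 arrays. Under median scaling the member median was −1.67.

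The next comparison asked whether the respiratory transcripts differed between kd and wt exosomes, with the 6 exosome arrays normalized apart from the cells. No member of 63 passed the threshold, and no probe of 8699 did (0%, limma). At an unadjusted p below 0.05 there were 12 members, 5 higher and 7 lower, against 13.1% of all probes (5.02% higher and 8.04% lower). The member median was −0.02 and that of all probes −0.04. For 7 members the kd arrays lay above all wt arrays (6.43% of all probes) and for 7 below (11.5%).

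The kd arrays did not form 1 group. For 57 of 63 members kd array 3 lay nearer to the wt mean than to kd arrays 1 and 2, and the median distance from the wt mean was 0.39, 0.36 and 0.093 on kd arrays 1, 2 and 3. The largest deviation among the wt arrays themselves had a median of 0.10. Signs differed among the 3 kd arrays for 36 members. The widest range among these was that of Ndufs1, which read 1.90 and 1.84 above the wt mean on kd arrays 1 and 2 and 0.02 below it on array 3. Ndufaf6 came next, with −0.96, −0.72 and 0.51. The Cd44 probe did not show this split, being 5.59, 5.72 and 5.37 on kd arrays 1, 2 and 3. Marker lists did, the epithelial markers having medians of −0.90, −0.81 and −0.11 and the 3 tested erythroid markers −3.11, −3.13 and 2.71 relative to the wt mean. The part of these markers in the members' values was not tested.

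The 7 complex IV genes that passed the filter all lay lower in the mean of the kd arrays (median −0.21), none past the threshold. Over all probes, 4635 of 8699 lay lower. Cox7b and Cox8a were not below the wt mean on every kd array. Cox7a2l lay 1.40, 1.45 and 0.31 below the wt mean on kd arrays 1, 2 and 3. All 3 were below the wt arrays, and the difference was −1.05 ± 0.31 (adjusted p = 0.38, limma). Cox5b lay at −0.54 ± 0.16 and Cox4i1 at −0.21 ± 0.12, again without overlap, and Cox5a at −0.79 ± 0.31 with array 3 at the wt mean (−0.01). On the median scale the sign of Cox5b turned (0.11) and Cox7a2l stayed lower (−0.42), with the median of all probes at 0.36. Of the remaining members below all wt arrays, Uqcrc2 of complex III lay at −0.89 ± 0.28, and Ndufab1, the mitochondrial acyl carrier protein, at −0.66 ± 0.24.

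Several members of complex II and of the ATP synthase head lay higher in the mean of the kd arrays, none past the threshold. Of all 8699 probes, 4064 lay higher. The complex II median was 0.73, 0.54 and −0.02 on kd arrays 1, 2 and 3. Sdhc read 0.67, 0.60 and 0.21 above the wt mean on kd arrays 1, 2 and 3, beyond the wt arrays in each case, at 0.49 ± 0.16 (adjusted p = 0.38, limma). Sdhb lay at 0.51 ± 0.22 and Sdha at 0.30 ± 0.36 (−0.46 on kd array 3), whereas Sdhd lay at −0.24 ± 0.14. Atp5f1a and Atp5f1b lay at 0.53 ± 0.28 and 0.47 ± 0.25, with kd array 3 slightly below the wt mean for both. Ndufb6, a membrane arm subunit of complex I, and Uqcrh also lay above all wt arrays, at 0.57 ± 0.20 and 0.45 ± 0.19. Ndufs1 had the largest positive value, 1.24 ± 0.50. Over the 17 subunits of the naming list the median was 0.30, against −0.08 over the other 40 subunits, and neither set held a call. That list is not the set of core subunits. It leaves out Ndufs7, Ndufs8 and Ndufv2 and holds Cox4i1, Cox5a, Cox5b and Atp5po.

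**Figure D4:**
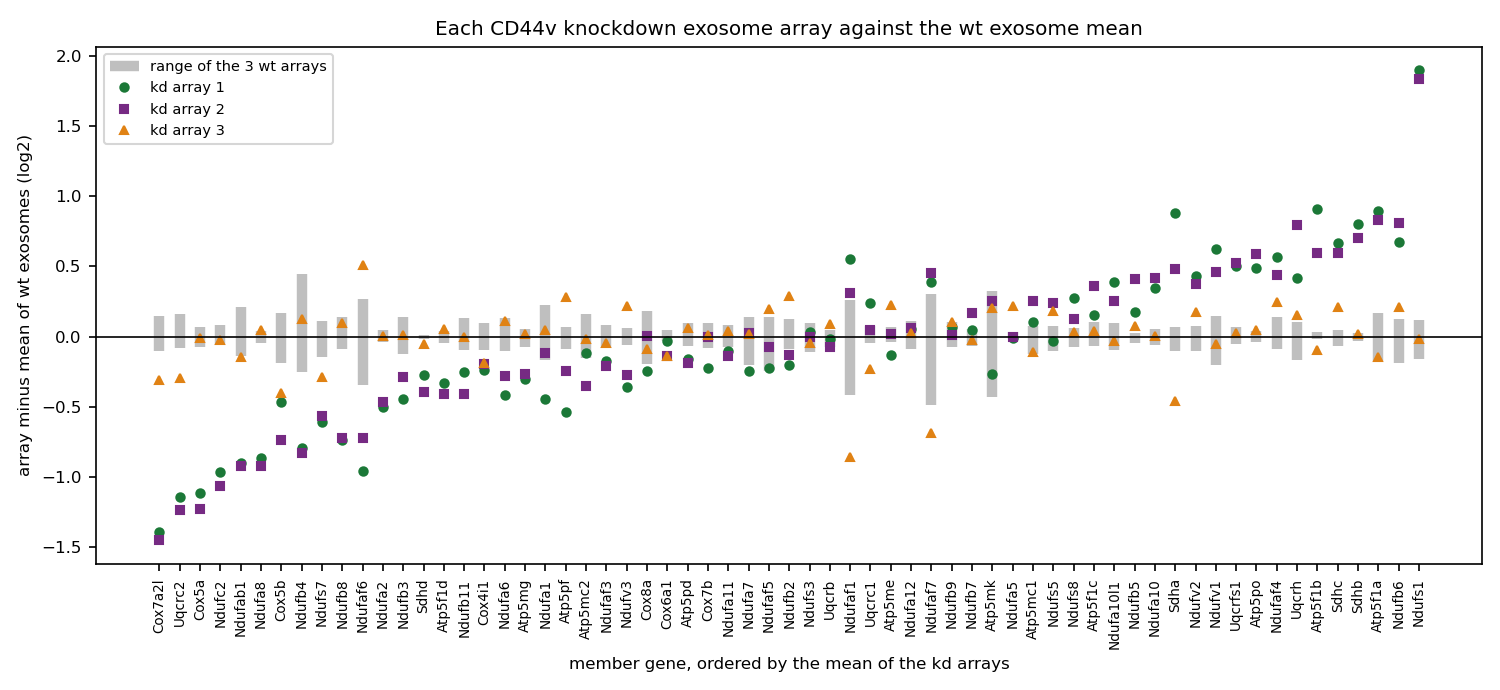
Each kd exosome array minus the mean of the wt exosome arrays (vertical axis, log2) for 63 members ordered by the mean of the kd arrays (horizontal axis), on quantile scaling. Grey bars span the 3 wt arrays. Kd arrays 1 and 2 run from −1.45 (Cox7a2l) to 1.90 (Ndufs1), while kd array 3 lies nearer to the wt mean for 57 of the 63 genes.

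Each array was left out in turn, and kd array 3 is singled out here after its values were seen, so the fit without it describes kd arrays 1 and 2 and is no independent test of the knockdown. Without kd array 3, 35 of 65 members passed the threshold, 16 higher and 19 lower (limma), against 25.2% of 10169 probes called higher and 17.3% lower. The filter was applied again to the remaining arrays, so more probes were tested than with all exosome arrays. Cox6a2, detected on no wt array, entered through kd arrays 1 and 2 alone. It is among the 16 called higher (0.44 ± 0.14). Ndufs1 lay higher by 1.87 ± 0.13 and Cox7a2l lower by 1.43 ± 0.10. Cox5a, Uqcrc2, Ndufc2 and Ndufab1 were lower by 1.18, 1.19, 1.02 and 0.92, and Atp5f1a, Atp5f1b, Sdhb and Ndufb6 higher by 0.86, 0.75, 0.75 and 0.74. All 4 complex II genes were called, 3 higher and Sdhd lower. Under median scaling these arrays gave 50 of 65 members higher and none lower, against 52% and 5.02% of all probes, with a median of 1.01 beside 0.72 for all probes. Ndufs1 then lay 2.47 above and Cox7a2l 0.96 below the median of all probes.

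The remaining comparisons asked whether B12 cells changed their respiratory transcripts after 24 h with exosomes. They share the untreated arrays, and the 6 B12 arrays were normalized together. The fits were unpaired, without a term for the replicate number. No member of 66 and no probe of 11631 (0%) passed the threshold after wt exosomes, after kd exosomes or between the treatments (limma, adjusted p of 1 at the lowest). At an unadjusted p below 0.05 the members counted 1, 0 and 1, against 2.8%, 2.46% and 1.99% of all probes. Member medians were −0.08, −0.01 and 0.03, beside 0.01, 0.01 and 0.00 for all probes. In bulk cells, fewer cells of a type and less RNA per cell cannot be told apart.

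After wt exosomes 4 members lay above both untreated arrays and 12 below (12.5% and 11.7% of all probes). The gene past an unadjusted p of 0.05 was Ndufb4, which read 5.30 and 5.33 against 4.81 and 4.68, a difference of 0.57 ± 0.19 (adjusted p = 1, limma). Ndufb4 and Ndufaf2 were each detected on only 1 of the untreated arrays. Both passed the filter through the treated groups alone, so their higher values are partly built in. Among the 63 members detected on every B12 array, none had an unadjusted p below 0.05 (limma). Of these, 2 lay above both untreated arrays and 12 below, against 1015 and 959 of 9208 such probes. Ndufaf2, an assembly factor that was likewise dim, read 5.11 and 5.95 against 4.83 and 4.69 (0.77 ± 0.34), and Ndufaf4 lay at 0.28 ± 0.35. The lowest values without overlap were those of Atp5me, a small membrane subunit of ATP synthase (−0.34 ± 0.16), of the ring gene Atp5mc2 (−0.30 ± 0.18) and of Ndufa12 (−0.25 ± 0.16). Complex III lay lower in 5 of 5 genes with a median of −0.15, none past the threshold, where 5582 of 11631 probes lay lower. Against the mean of both untreated arrays, signs differed for 31 members, most widely for Ndufaf5 and Ndufaf1, but against the untreated array of the same number for 22, most widely for Ndufb7 and Ndufs6-ps1. Within numbers Ndufaf5 lay at −0.10 and −0.44.

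After kd exosomes 6 members lay above both untreated arrays and 10 below (12% and 10.2% of all probes). Sdhd read 11.17 and 11.10 against 11.69 and 11.40, at −0.41 ± 0.22, and Atp5mc2 12.88 and 13.21 against 13.40 and 13.45, at −0.38 ± 0.18. Both were below the untreated arrays without passing the threshold. Ndufs6-ps1, detected on neither array after kd exosomes, lay at −0.43 ± 0.23. Ndufaf2 lay at 0.79 ± 0.34, Ndufb4 at 0.41 ± 0.19 and Atp5mk, a small subunit of the synthase, at 0.39 ± 0.27. As above, Ndufaf2 and Ndufb4 passed the filter through the treated groups alone. Signs differed for 34 members against the untreated mean, most widely for Ndufaf5 and Ndufaf6, and for 33 within numbers, most widely for Ndufa7 and Ndufaf4. Within numbers Ndufaf5 lay at 0.33 and 0.06.

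Between the treatments 9 members lay higher after kd than after wt exosomes without overlap and 5 lower (11.2% and 9.32% of all probes). Ndufs6-ps1 was the one past an unadjusted p of 0.05, at −0.59 ± 0.23. It was dim, being detected on 1 of the 2 arrays after wt exosomes and on neither after kd exosomes. It passed the filter through the untreated arrays alone. As a pseudogene its probe may share sequence with its parent gene. The other lowest were Uqcrc1 (−0.21 ± 0.18) and Ndufb4 (−0.17 ± 0.19), and the highest Atp5mk (0.38 ± 0.27), Uqcrb (0.24 ± 0.17) and Atp5pf, the coupling factor (0.22 ± 0.16). Signs differed for 38 members against the mean after wt exosomes, most widely for Ndufaf5 and Ndufaf6, and for 34 within numbers, most widely for Ndufaf2 and Ndufaf6. Among the core subunits not yet given, Atp5f1a read 13.52 and 13.51 in untreated cells, 13.57 and 13.48 after wt exosomes and 13.64 and 13.45 after kd exosomes. Atp5f1b read 13.56 and 13.53, then 13.58 and 13.45, then 13.61 and 13.38. The groups overlapped for both. Over the 17 subunits of the naming list the median difference was −0.08 after wt exosomes, −0.07 after kd exosomes and 0.02 between the treatments.

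**Figure D5:**
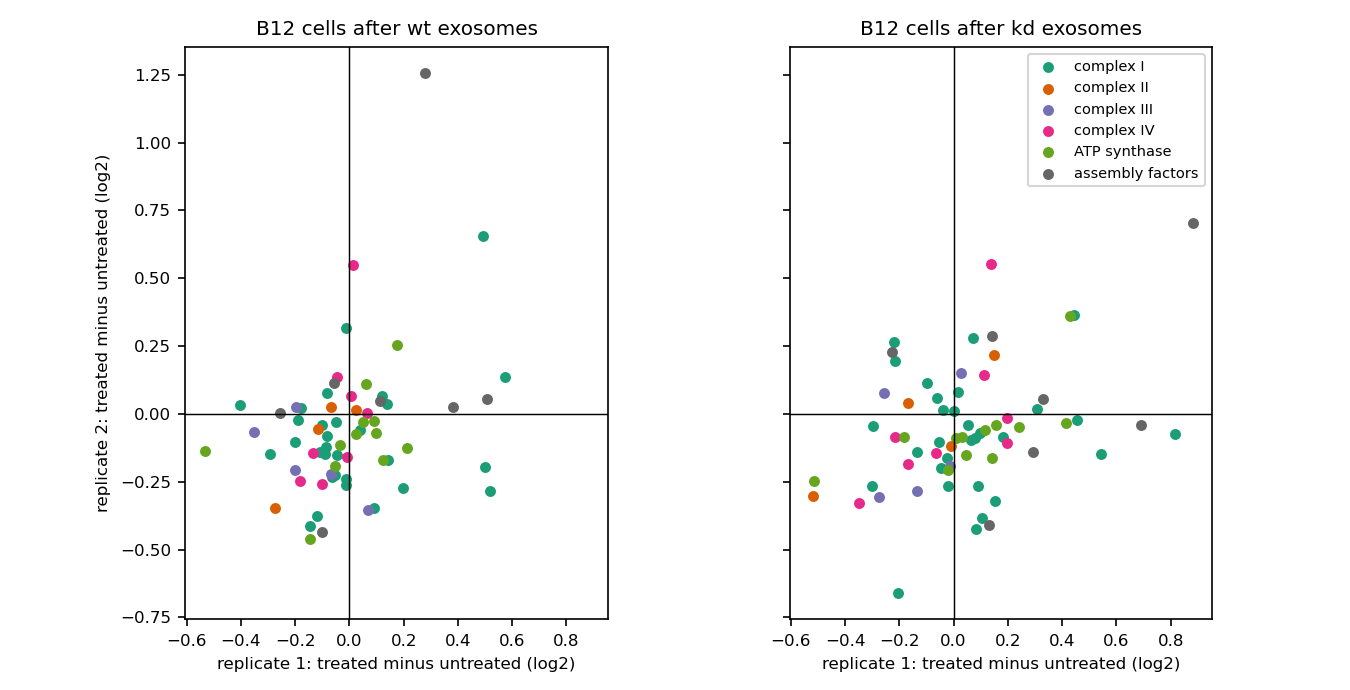
Change in log2 intensity of 66 members in B12 cells after wt exosomes (left) and after kd exosomes (right), each treated array minus the untreated array of the same replicate number, with replicate 1 on the horizontal and replicate 2 on the vertical axis and colour for the complex. Points lie around zero in both panels, and no gene passed the threshold. The panels share the untreated arrays.

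A larger difference separated the B12 replicates. Arrays numbered 2 were compared with arrays numbered 1 as a description chosen after seeing the data, with no test. In 21 members all 3 arrays of number 2 lay above all 3 of number 1 (18.6% of all probes), and in 12 below (20.7%). Ndufaf5 read 9.95, 9.52 and 10.01 on number 2 and 7.61, 7.51 and 7.94 on number 1, a difference of 2.14. Atp5f1c read 12.12, 11.95 and 12.04 against 11.06, 11.19 and 11.09, Ndufs8 lay 0.91 higher and Cox4i1 0.83 higher. The reverse held for Ndufaf1 and Ndufaf6, each 1.19 lower on number 2, and for Atp5pd and Ndufa5, each 0.61 lower. The median size of the difference was 0.20 over the members and 0.30 over all probes. Epithelial markers were higher on number 1 and stroma markers on number 2 in all 3 groups, and their part in the members' differences was not tested.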

How the data were processed

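Per the file headers, every array has 1 column of intensity and 1 of p-value in the non-normalized table that the authors deposited, and no label or header names the software that made them. RNA was extracted with Trizol and labelled as biotinylated cRNA, per the labels' protocols. Of 23365 rows, 848 had no identifier, and 280 identifiers on 571 rows stood more than once and were left out, leaving 21946 probes, of which 13129 had 1 platform symbol and 8817 none. The deposited p-value was small on both sides of the background, so it was read as two-sided and turned into a detection p of the upper side before correcting the background. Background was the median intensity of probes with a p-value above 0.9.

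Intensities were corrected by normexp (offset 16), quantile normalized and put on a log2 scale with neqc of limma 3.58.1 (R 4.3.3). Probes that every array of some group detected were fitted with lmFit and eBayes with a trend, and p-values were adjusted by Benjamini and Hochberg over all probes tested, threshold 0.05. The exosome arrays, the B12 arrays and all 12 arrays were fitted apart, so log2 values of these 3 scales are not interchangeable. The fits were tested on simulated data. Figures were drawn with matplotlib 3.10.9. The authors' deposited value table, put on log2 with a floor of 16, was used as an alternative only.

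The members, gene lists and tests were chosen with earlier results of these data known. Named were the subunits of a list, tissue-restricted isoforms with their common partners, and the 5 most changed members past the threshold in each direction. So were the 3 most different without overlap in each direction, and the 2 with the widest range among members whose arrays differed in sign. The naming list held Ndufs1, Ndufs3, Ndufv1, the Sdh genes, Uqcrc1, Uqcrc2, Uqcrfs1, Cox4i1, Cox5a, Cox5b, Atp5f1a, Atp5f1b, Atp5f1c and Atp5po. Further members are named to describe their complex and were chosen after their values were seen. The NRF1 and YY1 cores were shortened after a first search with longer forms, which matched fewer members. The groups share replicate numbers, whose meaning the labels do not give. Over all probes, same-numbered B12 arrays of different groups had correlated deviations (r of 0.773 to 0.799). Differences within a number are therefore given for the B12 arrays, but not for the exosome arrays (r of −0.207 to 0.458). The printed B12 SEs and p-values come from unpaired fits without the replicate number, so differences between numbers are part of their spread. The fit with the number as a block was an alternative. With 2 B12 arrays a group the deviations of a group mirror each other. The number of arrays limits the precision.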

Additional observations from a re-analysis of the deposited data

How the results depend on the processing

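With the replicate number as a block, the B12 comparisons and the knockdown comparison still gave 0 calls among the members, and exosomes against cells gave 24 higher and 4 lower (18.1% and 17.2% of all probes) with a member median of 0.30. For wt exosomes against untreated B12 cells, median scaling gave 48 calls (51.4% of all probes called) and a median of −1.67. It turned 43 of the 45 members above zero to below it and none the other way. Among the members that the naming rule gave for this comparison and that passed the threshold under at least one of the scalings, 12 turned: Ndufs3 (−1.66), Sdhc (−1.77), Sdhd (−1.34), Uqcrc1 (−2.02), Cox5a (−0.88), Cox5b (−1.30), Atp5f1c (−1.98), Cox8a (−1.59), Ndufaf6 (−0.31), Ndufa7 (−0.45), Ndufb7 (−0.58) and Ndufaf4 (−0.51). Members described above outside that rule turned too: Cox7a2l (−0.61), Ndufa2 (−1.29), Atp5mg (−0.83), Atp5pd (−1.12), Atp5mc1 (−0.72), Atp5f1d (−1.50), Cox7b (−1.05), Ndufaf3 (−1.19) and Ndufa11 (−1.43). Ndufb4 stayed above zero (1.03). The cause was not tested beyond the shift of all probes given above. The median was 0.18 in the authors' values and 0.35 for the mean of both exosome groups against the mean of the B12 groups, and 0.20 to 0.28 with single arrays left out, when 13 to 23 members were called. No background correction, no filter and the fit without kd arrays kept the count within 1.5 times of the 27 calls. For kd against wt exosomes, median scaling moved the median to 0.59 (all probes 0.36), array weights gave 35 calls of 63 (48% of all probes called), and single arrays left out gave 0 to 35 calls and medians of −0.073 to 0.0024, the 35 of 65 without kd array 3 (42.5% of all probes called). The B12 comparisons gave 0 calls under every setting run, and the median after kd exosomes ran from −0.073 to 0.011 with single arrays left out. Dim genes such as Ndufb4, Cox6c, Ndufaf2 and Ndufs6-ps1 limit what can be read from them.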
